A study of Mus musculus with 6 samples.

Results

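Cardiac fibroblast identity genes were followed across 6 RNA libraries made from mouse heart cells. The set is a list of 10 genes known to mark these cells, with collagens left out: Pdgfra, Dcn, Lum, Tcf21, Postn, Dpt, Pi16, Ogn, Mfap5 and Fbln1. All 10 were found among the 55487 gene identifiers of the count tables, and all 10 passed the filter on low counts. The starting material of a library was 5 hearts of C57BL/6 mice pooled, or 6 for KO replicate 3, whose non-myocyte cells were enriched with magnetic beads against Cd11b, the integrin of myeloid cells encoded by Itgam. The control pools (WT, 3 libraries) carried floxed Egfr, written Egfr f/f in the labels. The knockout pools (KO, 3 libraries) were Egfr mKO, labelled as a deletion of EGFR specific to myeloid cells. The labels give no age and no sex, and they do not name the Cre driver behind the deletion. The pool was the replicate, so tests measure the spread between pools of hearts and not between animals.

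Fibroblasts are the matrix-producing stromal cells of the heart, lying between myocytes and around vessels. They do not carry Cd11b, so the beads do not select for them. Pdgfra and Tcf21 are used to define the resting lineage, the secreted matrix genes report its product, and Postn is best known for the activated state after injury. In such bulk samples, fewer fibroblasts and less RNA per fibroblast cannot be told apart.

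The libraries held 17780707 to 27485129 reads in genes, and the 10 genes were counted between 285 and 35150 times each, so counting noise was small beside the spread between pools. The targeted gene Egfr was at 54.7, 43.0 and 44.7 CPM (read counts scaled to a common library size with TMM factors) in WT replicates 1 to 3 and at 18.5, 15.9 and 17.4 CPM in KO replicates 1 to 3, an edgeR log2 fold change of -1.46 (SE 0.13, adjusted p = 0.0449). Lyz2, a lysozyme gene of myeloid cells, was at 4074 to 6700 CPM in the WT pools and at 17.4 to 19.3 CPM in the KO pools. Itgam, at 84.4 to 176 CPM, and the macrophage receptor Csf1r, at 1718 to 3199 CPM, were present in every library, and both belong to the labelled Cd11b cells. WT replicate 1 stood apart from the other WT pools in the fibroblast genes, and it is given separately throughout.

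Promoter sequence was available for 7 of the 10 genes (RefSeq, GRCm38.p6, 9 start sites), and 3 windows are shown because they hold matches to the motifs searched. The window of Fbln1 with a match overlaps the annotated gene and is not printed. The window of Dpt is printed, and its last bases also run past the annotated start of the gene at 164796644. Each line gives the 250 bases before a start site, 5′ to 3′ on the gene's strand. Capitals mark every match, on either strand, to an E-box CAGCTG of the kind bound by bHLH factors such as Tcf21, a TEAD site GGAATG, the TATA box (letters TATAAA) or an AP-1 site TGANTCA.
Dpt, chr1:164796413-164796662, plus strand: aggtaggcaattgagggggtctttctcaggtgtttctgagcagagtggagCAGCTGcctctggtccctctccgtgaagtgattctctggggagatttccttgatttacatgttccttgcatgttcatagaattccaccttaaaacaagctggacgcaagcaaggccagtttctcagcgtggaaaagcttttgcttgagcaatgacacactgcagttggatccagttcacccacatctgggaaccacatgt
Ogn, chr13:49607765-49608014, plus strand: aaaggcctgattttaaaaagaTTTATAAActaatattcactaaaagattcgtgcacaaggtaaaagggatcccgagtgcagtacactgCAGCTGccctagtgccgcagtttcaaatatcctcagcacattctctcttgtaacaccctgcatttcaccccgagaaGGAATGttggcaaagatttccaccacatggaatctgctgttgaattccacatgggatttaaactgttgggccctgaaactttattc
Postn, chr3:54360857-54361106, plus strand: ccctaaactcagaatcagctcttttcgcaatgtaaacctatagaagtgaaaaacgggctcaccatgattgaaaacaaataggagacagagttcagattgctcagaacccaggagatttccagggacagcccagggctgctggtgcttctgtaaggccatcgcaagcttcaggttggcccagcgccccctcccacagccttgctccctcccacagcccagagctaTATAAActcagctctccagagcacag
The E-box began 200 bases before the start of Dpt and 162 bases before that of Ogn. In Ogn a TATA box on each strand overlapped, beginning 227 and 229 bases before the start, and the TEAD site began 86 bases before it. For Postn the downstream of its listed start sites is shown, and its TATA box began 26 bases before that start. Of the 9 windows of these genes, 3 held the E-box (the other one at Fbln1), 2 the TATA box, 1 the TEAD site and 0 the AP-1 site. Among all 32851 windows of the same length, 13.0% held the E-box, 12.4% the TATA box, 12.6% the TEAD site and 6.75% the AP-1 site. These matches describe the letters only, and no binding was measured here.

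In the plot of the genes by pool, WT replicates 2 and 3 held the highest levels of every gene, and WT replicate 1 lay beside the KO pools. The members' CPM summed to 1203 in WT replicate 1, to 2630.0 and 3835 in WT replicates 2 and 3, and to 1407, 1253 and 1083 in KO replicates 1 to 3. This was 0.115% of the reads in genes in WT replicate 1, 0.284% and 0.386% in WT replicates 2 and 3, and 0.134%, 0.127% and 0.107% in KO. WT replicate 3 was the highest library for all 10 genes. The KO pools lay below WT replicates 2 and 3 for all 10, as they did for 21.4% of all genes tested. They lay below all 3 WT pools for 1 of the 10, Pi16, where 10.1% of all genes tested did so.

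**Figure D1:**
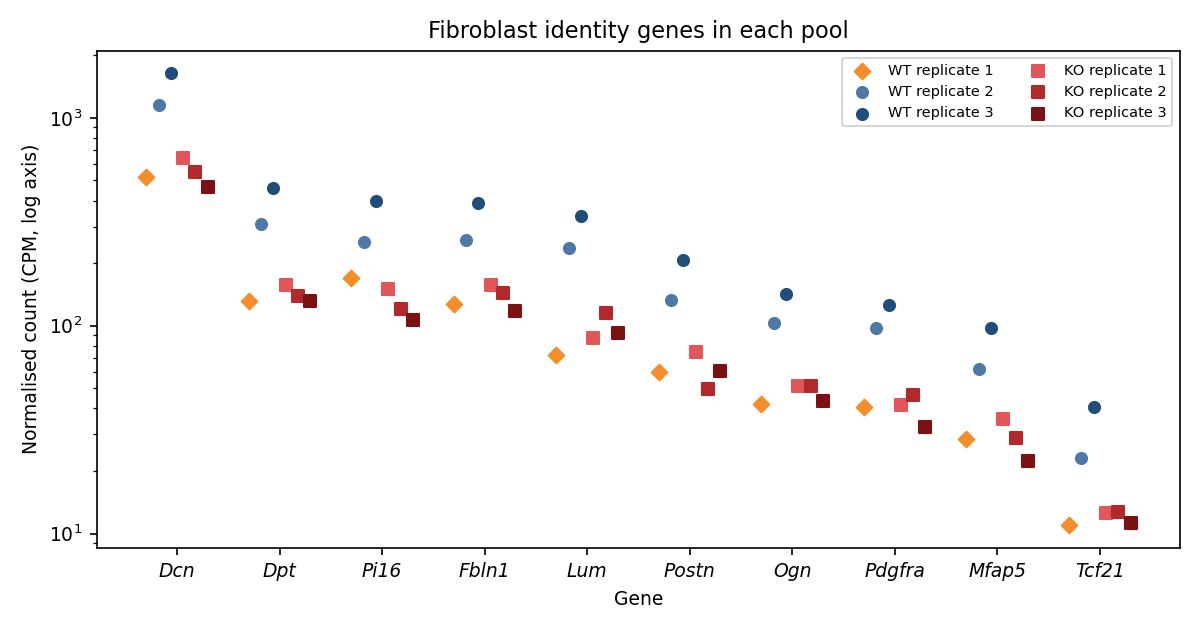
Normalised counts (CPM, log axis) of the 10 fibroblast identity genes, ordered by their WT mean, with 1 point per pool: WT replicate 1 as a diamond, WT replicates 2 and 3 as circles, KO pools as squares. The KO squares lie below both WT circles for every gene, and the diamond lies above all 3 squares for Pi16 only.

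Compared over all 6 pools, 0 of the 10 genes passed the test (edgeR quasi-likelihood, Benjamini-Hochberg over 15707 genes), against 0.0127% of all genes tested. All 10 log2 fold changes, KO against WT, were negative (49.2% of all genes tested were), from -1.13 to -0.89, with a median of -1.10, beside 0.01 over all genes tested. Their adjusted p-values ran from 0.197 to 0.305. At an unadjusted p under 0.05 there were 10 of 10, where 10.6% of all genes tested were lower at that level. The set was chosen with earlier results of these data known, so these shares describe it and give no separate support. Under a stricter filter (mean CPM at least 5, background 0.0181%) 0 of 10 passed. DESeq2 called 2 of the 10 lower, Pi16 and Pdgfra (background 4.5%), limma-voom 0 (background 0.00637%), and edgeR without its expression filter 6 (background 2.22%), namely Pdgfra, Postn, Dpt, Pi16, Ogn and Mfap5.

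Without WT replicate 1, edgeR called all 10 genes lower in KO, where it called 5.97% of all genes tested lower. The median log2 fold change of the 10 was then -1.41, with SEs of 0.16 to 0.24 in place of 0.30 to 0.46 and adjusted p-values of 0.0136 to 0.0187. Without WT replicate 3, the median was -0.63, 0 of 10 passed (background 0.00618%) and the adjusted p-values were 0.462 to 0.689. Leaving out WT replicate 2 (background 0.00625%), KO replicate 1 (0.0062%), KO replicate 2 or KO replicate 3 (0.00618% each) also gave 0 of 10. The call on these genes therefore turned on which WT pools were counted, and no rule from the labels sets WT replicate 1 aside. It was the lowest WT pool for each of these genes, so leaving it out was bound to enlarge their fold changes. The adjusted p-values without WT replicate 1, here and below, rest on a choice made on the same values and give no separate support.

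**Figure D2:**
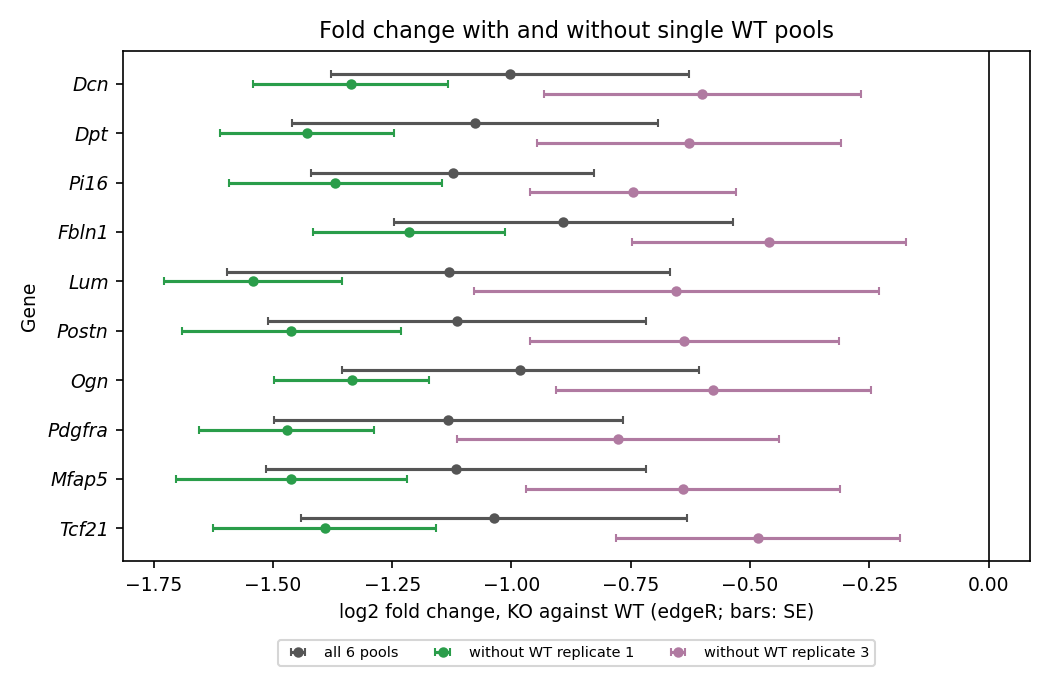
edgeR log2 fold changes, KO against WT, with SE bars for the 10 genes, from all 6 pools (grey), without WT replicate 1 (green) and without WT replicate 3 (purple). Every point lies left of 0, and the medians are -1.10, -1.41 and -0.63 in that order.

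The receptor and the transcription factor of the lineage showed this pattern clearly. Pdgfra (ENSMUSG00000029231, chromosome 5, 75152292 to 75198215, plus strand, GRCm38) encodes the receptor for platelet-derived growth factors that marks resting cardiac fibroblasts. It was at 40.8 CPM in WT replicate 1, at 97.3 and 126 in WT replicates 2 and 3, and at 41.4, 46.6 and 32.4 in the KO pools. WT replicate 1 lay inside the KO range, and the other WT pools lay above it. KO against WT came to -1.13 on the log2 scale (SE 0.37, adjusted p = 0.235 by edgeR), and -1.47 (SE 0.18, edgeR adjusted p = 0.0136) without WT replicate 1.

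Tcf21 (ENSMUSG00000045680, chromosome 10, 22817281 to 22820174, minus strand) encodes a bHLH factor needed for cardiac fibroblast formation. It had the lowest CPM of the 10 genes, with 11.0 in WT replicate 1, 23.2 and 40.7 in WT replicates 2 and 3, and 12.5, 12.8 and 11.2 in the KO pools. WT replicate 1 was below every KO pool, and the KO pools differed from each other by at most 1.14-fold. KO against WT came to -1.04 on the log2 scale (SE 0.40, adjusted p = 0.285 by edgeR) over 6 pools and -1.39 (SE 0.23, edgeR adjusted p = 0.0187) without WT replicate 1. An antisense transcript, Gm10824, overlaps Tcf21 and reached 1.21 CPM, and the strand setting of the counting is not given in the sources used here.

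Dcn, Lum and Ogn encode decorin, lumican and osteoglycin, small leucine-rich proteoglycans that bind collagen fibrils and set their spacing. Dcn (ENSMUSG00000019929, chromosome 10, 97479609 to 97518143, plus strand) had the highest CPM of the set, at 519.7 in WT replicate 1, 1154 and 1637 in WT replicates 2 and 3, and 640.1, 547 and 466 in the KO pools. WT replicate 1 again fell inside the KO range. For Dcn, KO against WT was -1.0 on the log2 scale (SE 0.38, adjusted p = 0.27 by edgeR), and -1.34 (SE 0.20, edgeR adjusted p = 0.0168) without WT replicate 1.

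Lum (ENSMUSG00000036446) lies 46984 bases downstream of Dcn on the same strand, at 97565128 to 97572703. It was at 72.5 CPM in WT replicate 1, 238 and 335 in WT replicates 2 and 3, and 86.9, 115 and 92.5 in KO. WT replicate 1 lay below every KO pool and at 25.3% of the mean of WT replicates 2 and 3, the lowest such share of the 10 genes. With the widest spread between pools of the set (SE 0.46), Lum came to -1.13 on the log2 scale (adjusted p = 0.305 by edgeR), and -1.54 (SE 0.19, edgeR adjusted p = 0.0136) without WT replicate 1.

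Ogn (ENSMUSG00000021390, chromosome 13, 49608046 to 49624501, plus strand) was at 42.1 CPM in WT replicate 1, 104 and 142 in WT replicates 2 and 3, and 51.3, 51.3 and 43.2 in KO. Again WT replicate 1 was below every KO pool. KO against WT came to -0.98 on the log2 scale (SE 0.37, adjusted p = 0.279 by edgeR), and -1.33 (SE 0.16, edgeR adjusted p = 0.0136) without WT replicate 1. Ogn overlaps the antisense gene Cenpp, which reached 2.35 CPM.

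The neighbours of these proteoglycan genes were read as well, because the family lies in 2 clusters. On chromosome 10, beyond Lum, Kera was too low to test, at up to 0.279 CPM, and Epyc had a log2 fold change of -0.66 (SE 0.43). On chromosome 13, Ecm2 (-0.89, SE 0.28), Aspn (-0.96, SE 0.33) and Omd (-0.51, SE 0.44) precede Ogn on the same strand, 49504810 to 49592822. None passed with all 6 pools (edgeR adjusted p = 0.229 to 0.625). Without WT replicate 1, Ecm2 (-1.15) and Aspn (-1.29) were called lower, and Omd (edgeR adjusted p = 0.117) and Epyc (edgeR adjusted p = 0.0798) were not. Of 13 further genes of the family, 11 were tested and all 11 values were negative, with a median of -0.96. With all 6 pools 0 of them passed. Without WT replicate 1 there were 6 lower (background 5.97%) and 0 higher. Among the 6 was Podn, a further leucine-rich matrix protein (-1.44, edgeR adjusted p = 0.0197).

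Dpt, Mfap5 and Fbln1 organise fibrils and elastic fibres. Dpt (ENSMUSG00000026574, chromosome 1, 164796644 to 164824266, plus strand) encodes dermatopontin, a decorin-binding matrix protein. It was at 132 CPM in WT replicate 1, 308 and 458 in WT replicates 2 and 3, and 156, 138 and 131 in KO. WT replicate 1 lay inside the KO range. For Dpt, KO against WT was -1.08 on the log2 scale (SE 0.38, adjusted p = 0.256 by edgeR), and -1.43 (SE 0.18, edgeR adjusted p = 0.014) without WT replicate 1.

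Mfap5 (ENSMUSG00000030116, chromosome 6, 122505845 to 122529290, plus strand) encodes a microfibril-associated glycoprotein. It was at 28.4 CPM in WT replicate 1, 62.1 and 97.6 in WT replicates 2 and 3, and 35.4, 28.9 and 22.4 in KO. It spread most among the KO pools, by 1.58-fold, and WT replicate 1 lay within that spread. KO against WT came to -1.12 on the log2 scale (SE 0.40, adjusted p = 0.257 by edgeR), and -1.46 (SE 0.24, edgeR adjusted p = 0.0185) without WT replicate 1.

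Fbln1 (ENSMUSG00000006369, chromosome 15, 85205949 to 85286535, plus strand) encodes fibulin-1, a matrix glycoprotein of basement membranes and elastic fibres. It was at 127 CPM in WT replicate 1, 258 and 391 in WT replicates 2 and 3, and 157, 143 and 118 in KO. WT replicate 1 was within the KO range. Its log2 fold change was the smallest in size of the set, -0.89 (SE 0.36, edgeR adjusted p = 0.295), and -1.21 (SE 0.20, edgeR adjusted p = 0.0185) without WT replicate 1.

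Among 19 other genes of elastic fibres and microfibrils, 18 values were negative, with a median of -0.80. Fbn1, the fibrillin that forms the microfibril core, had -1.34 (SE 0.34), Efemp1, a fibulin, -0.92 (SE 0.22), and Eln, elastin itself, -0.75 (SE 0.21). None of the 19 passed with all 6 pools, and 11 were called lower without WT replicate 1 (background 5.97%), those 3 among them. In this group the KO pools lay below all 3 WT pools for 9 of 19 genes, against 10.1% of all genes tested and 1 of the 10 identity genes. The exception to the direction was Emilin2 at 0.47 (SE 0.21).

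Postn (ENSMUSG00000027750, chromosome 3, 54361109 to 54391037, plus strand) encodes periostin, a matricellular protein that activated fibroblasts secrete. It was at 59.8 CPM in WT replicate 1, 133 and 208 in WT replicates 2 and 3, and 74.9, 49.6 and 60.4 in KO. KO replicate 2 was the lowest pool, and WT replicate 1 lay inside the KO range. KO against WT came to -1.11 on the log2 scale (SE 0.40, adjusted p = 0.256 by edgeR), and -1.46 (SE 0.23, edgeR adjusted p = 0.0173) without WT replicate 1. Other genes of activated fibroblasts, 17 in all, had a median of -0.95 with 16 negative. Of these, 0 passed with all 6 pools and 7 were lower without WT replicate 1 (background 5.97%). The activation markers Fap (-1.25, SE 0.34) and Cdh11 (-0.96, SE 0.28) and the matricellular Thbs4 (-1.46, SE 0.43) led by p-value. Fn1, fibronectin, was the exception at 0.51 (SE 0.34), and it was highest in KO replicate 2 at 3022 CPM, the pool where Postn was lowest.

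Pi16 (ENSMUSG00000024011, chromosome 17, 29317680 to 29330593, plus strand) encodes a peptidase inhibitor that marks adventitial fibroblasts. Its level was 170.2 CPM in WT replicate 1, 252 and 399 in WT replicates 2 and 3, and 151, 121 and 106 in KO. Alone of the 10, it had every KO pool below every WT pool, as did 10.1% of all genes tested. For Pi16, WT replicate 1 was at 52.2% of the mean of WT replicates 2 and 3, where the other 9 genes were at 25.3% to 39.1%. KO against WT came to -1.12 on the log2 scale (SE 0.30) with the smallest p of the set (edgeR adjusted p = 0.197), and -1.37 (SE 0.22, edgeR adjusted p = 0.0182) without WT replicate 1. Of 15 other adventitial genes, 13 values were negative (median -1.07). With all 6 pools 0 of them passed, and 9 were lower without WT replicate 1 (background 5.97%). Among these 9 were Cd34, a sialomucin also found on endothelium, Scara5, a ferritin receptor, and Efhd1. Their log2 fold changes over all 6 pools were -1.15 (SE 0.32), -1.22 (SE 0.35) and -1.07 (SE 0.34). Dpp4 (0.12) and Anxa3 (0.08) were the exceptions to the direction among the 15.

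Per kilobase of exon, the 10 genes kept nearly the same order in every pool. As FPKM (reads per kilobase of exon at the same library scaling, exon lengths from GENCODE M21), the WT levels ran from Dcn at 189 ± 95.9 and Dpt at 174 ± 94.8 through Lum (87.9 ± 54.3), Fbln1 (59.2 ± 30.3), Pi16 (43.0 ± 18.2) and Ogn (37.4 ± 19.7) (SD, n = 3). Below these were Mfap5 (17.5 ± 9.64), Postn (15.3 ± 8.51), Tcf21 (10.6 ± 6.36) and Pdgfra (8.78 ± 4.32). The KO order was the same, from Dcn at 94.3 ± 15.0 to Pdgfra at 4.0 ± 0.717. The large WT SDs were shared between genes, since within single pools each gene lay above the next in at least 5 of 6 libraries, except Pi16 above Ogn in 3 of 6. Pi16 and Ogn therefore could not be ordered.

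The genes differed little among themselves once the level shared by all 10 was taken out. That shared level, the mean log2 CPM of the 10, was 6.16 in WT replicate 1, 7.32 and 7.90 in WT replicates 2 and 3, and 6.37, 6.25 and 6.04 in KO. Single genes then deviated with an SD over the 6 pools of 0.05 (Dpt) to 0.26 (Lum) on the log2 scale, beside 0.68 to 0.89 before centring. The largest deviations were Pi16 in WT replicate 1 (0.44), Lum in WT replicate 1 (-0.35) and KO replicate 1 (-0.30), and Postn in KO replicate 2 (-0.35). The ratio of Pi16 to Dcn CPM was accordingly 0.327 in WT replicate 1 and 0.219 to 0.244 in the other 5 pools. The ratio of Lum to Dcn was 0.140 and 0.136 in WT and KO replicates 1 and 0.199 to 0.211 in the other 4. Neither ratio separated KO from WT.

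**Figure D3:**
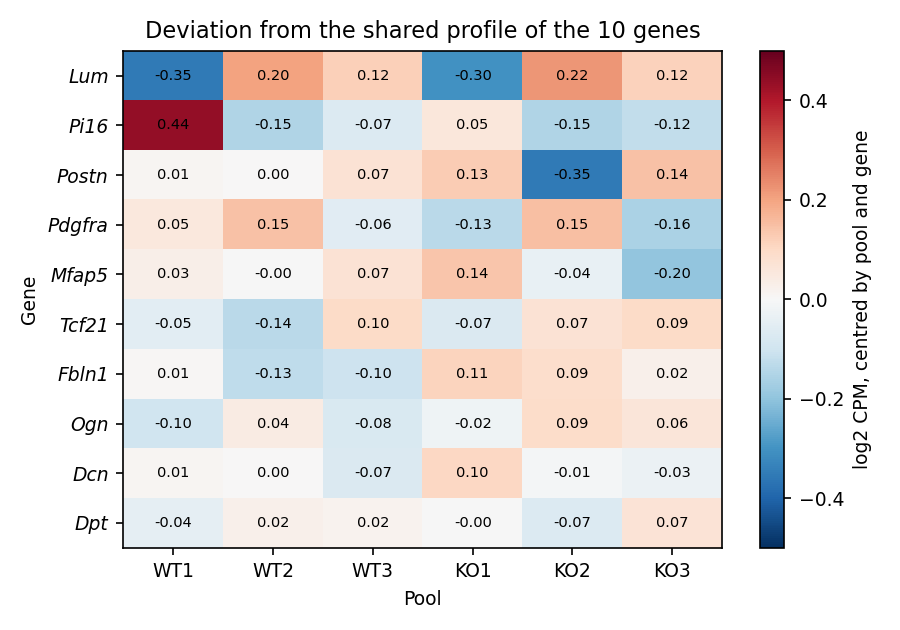
Log2 CPM of each gene after removing the mean of the 10 genes in that pool and the gene's own mean, 1 column per pool and 1 row per gene, ordered by SD. The strongest cells are Pi16 in WT replicate 1 (0.44), Postn in KO replicate 2 (-0.35) and Lum in WT replicate 1 (-0.35).

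Genes outside the list with the closest profile were picked by their correlation among all genes tested at a mean CPM of at least 1. High values were therefore bound to appear. Over the 6 pools, the 8 named genes most like the mean standardised profile of the 10 were Bmpr1a, Sh3d19, Wnt5a, Prelp, Lrrn4cl, Gsn, Islr and Mmp2, with Pearson r of 0.997 to 0.9999. The 10 genes themselves had r of 0.954 (Pi16) to 0.998 (Dpt), and each of them is part of that mean. Prelp is a proteoglycan of the family of Dcn, Mmp2 a gelatinase and Wnt5a a secreted Wnt ligand. Gsn, the actin-severing protein gelsolin, was at 2477 CPM in WT replicate 1, 5302 and 8247 in WT replicates 2 and 3, and 3091, 2727 and 2344 in KO. With only 6 points, such correlations describe these pools only.

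The settings in which the identity genes work were read from lists chosen beside them. The 16 genes listed as transcription factors of cardiac mesenchyme were all negative, with a median of -0.81. First by p-value were Osr1 (-1.11, SE 0.33), Prrx1 (-1.0, SE 0.32) and Tcf4 (-0.38, SE 0.13). Of the 16, 0 passed with all 6 pools and 10 were lower without WT replicate 1 (background 5.97%). Osr1 and Prrx1 were included and Tcf4 was not (edgeR adjusted p = 0.0859). Tcf4 also differed in its pattern, with 185 CPM in WT replicate 1, 198 and 226 in WT replicates 2 and 3. WT replicate 1 was nearer to the KO mean for 15 of the 16, and Tcf4 was the exception. Further interstitial fibroblast genes, 25 in all, had a median of -1.06 with 24 negative, led by the chemokine Cxcl12 (-1.08, SE 0.24), the glypican Gpc6 (-1.32, SE 0.31) and the collagen receptor Ddr2 (-1.14, SE 0.29). None passed with all 6 pools and 21 were lower without WT replicate 1 (background 5.97%). Cxcl12, Gpc6 and Ddr2 were among the 6 of 25 with every KO pool below every WT pool (10.1% of all genes tested). Of the identity genes, 1 of 10 had this order.

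The other genes of the PDGF pathway divided. Pdgfrb, the receptor of pericytes and fibroblasts, had -1.0 (SE 0.24), the receptor-like gene Pdgfrl -1.18 (SE 0.40) and the ligand gene Pdgfd -0.80 (SE 0.29). The ligand genes Pdgfb (-0.07, SE 0.14) and Pdgfa (0.11, SE 0.21) had values within their SE of 0, and Pdgfc had 0.51 (SE 0.21). Over all 6 pools 0 of these 6 genes passed. Without WT replicate 1, Pdgfrb (-1.21), Pdgfrl (-1.55) and Pdgfd (-1.04) were called lower and Pdgfc (0.76, edgeR adjusted p = 0.0402) higher.

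Counting each gene once, the 7 lists held 106 genes besides the identity genes, of which 104 were tested. Of these, 97 were negative (49.2% of all genes tested were) and the median was -0.95. The lists were chosen with earlier results of these data known, so such shares describe them and give no separate support. Over all 6 pools 0 of 104 passed in edgeR, with 69 at an unadjusted p under 0.05, against 15.3% of all genes tested. DESeq2 called 27, where it called 4.5% of all genes tested lower. Without WT replicate 1 edgeR called 63 lower (background 5.97%) and 1 higher, Pdgfc. The 7 positive genes were Emilin2, Pdgfa, Pdgfc, Dpp4, Anxa3, Fn1 and Vcam1, named here after their values were seen.

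Markers of other cell types showed where WT replicate 1 differed between cell types. Set against the mean of WT replicates 2 and 3 on the log2 scale, the median identity gene was -1.46 in WT replicate 1 and -1.20, -1.31 and -1.54 in the KO pools. The median of 15 endothelial markers was -0.43 in WT replicate 1, -0.34 in WT replicate 2 and -1.35, -1.33 and -0.84 in the KO pools. The median of 10 mural (pericyte and smooth muscle) markers was -0.57 in WT replicate 1, -0.19 in WT replicate 2 and -1.11, -1.29 and -0.77 in the KO pools. By these medians WT replicate 1 lay with the KO pools in fibroblast genes, close to WT replicate 2 in endothelial genes, and between WT replicate 2 and the KO pools in mural genes. It was nearer to the KO mean than to the other WT pools for 10 of 10 identity genes, 8 of 10 mural and 1 of 15 endothelial genes, against 65.0% of all genes tested. It lay at or below the highest KO pool for 9 of 10 identity genes, 1 of 10 mural and 1 of 15 endothelial genes, against 77.3%. The difference between these gene groups was described by counts and not tested.

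KO replicate 3 also ranked differently by cell type. By the medians above, it was the lowest KO pool in the identity genes and the highest in endothelial and mural genes, though not for every gene. Lum was lowest in KO replicate 1 and Postn in KO replicate 2. Kdr was highest in KO replicate 2, and the mural genes Abcc9 and Higd1b were highest in KO replicate 1. The ratio of Dcn to the endothelial gene Pecam1 was 1.44 in WT replicate 1 and 1.55 in KO replicate 3, and 2.47 to 2.85 in the other 4 pools. This ratio did not separate the genotypes either.

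**Figure D4:**
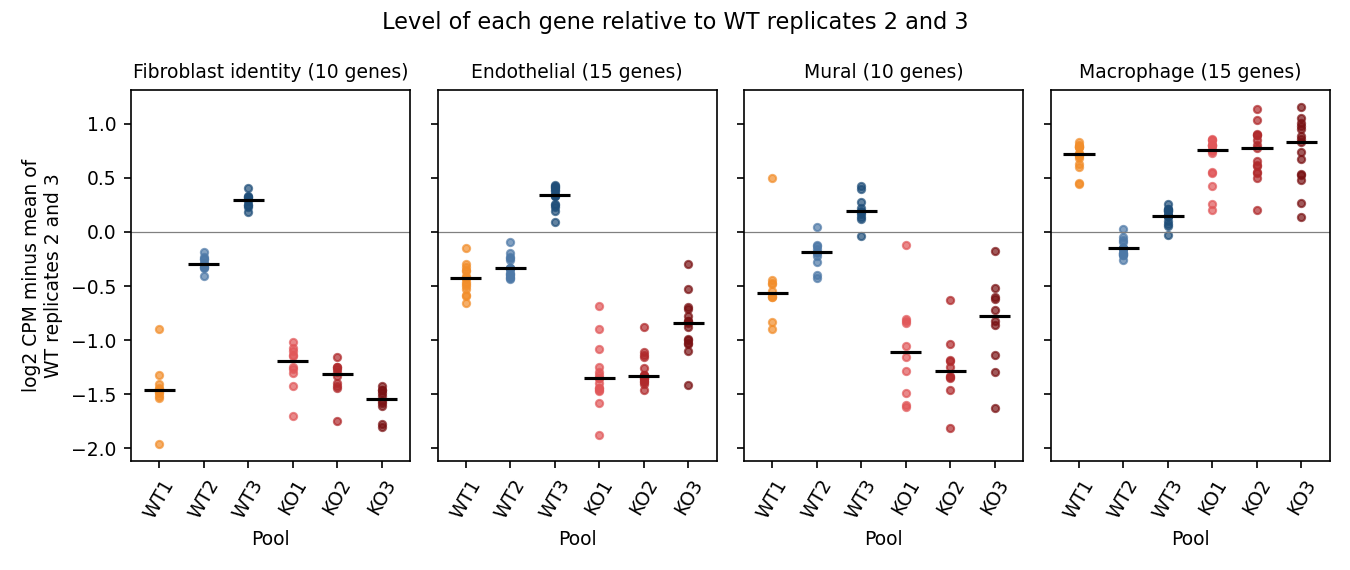
Log2 CPM of each gene minus its mean in WT replicates 2 and 3, by pool, for the identity genes and for endothelial, mural and macrophage markers. Points are genes and black lines are medians. The fibroblast median of WT replicate 1 (-1.46) lies among the KO medians (-1.54 to -1.20), and its endothelial median (-0.43) lies above all 3 (-1.35 to -0.84).

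Macrophage markers ran the other way. The 15 macrophage markers summed to 15148 CPM in WT replicate 1, 8279 and 10174 in WT replicates 2 and 3, and 15001 to 15788 in KO, so that WT replicates 2 and 3 were the lowest pools here and the highest in the identity genes. All 15 had positive log2 fold changes (median 0.50), and 0 passed with all 6 pools. Without WT replicate 1, 1338 of 16116 genes tested were called in either direction, 962 of them lower. Of the 15 macrophage markers, 9 were then called higher. Among these 9 were Timd4, Folr2 and Fcgr1. Their log2 fold changes over all 6 pools were 0.68 (SE 0.23), 0.66 (SE 0.24) and 0.59 (SE 0.19). The ratio of Dcn to Csf1r CPM was 0.170 in WT replicate 1, 0.672 and 0.772 in WT replicates 2 and 3, and 0.153 to 0.200 in KO. The part of these other cells' RNA in the fibroblast differences was not tested.

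All 15 endothelial values were negative (summed level 2594 to 4264 CPM in WT and 1441 to 1879 in KO, median -1.08), with Ptprb (-1.08, SE 0.17), Kdr (-1.36, SE 0.24) and Flt1 (-1.12, SE 0.21) first by p-value. All 10 mural values were negative too (1727 to 2836 CPM in WT, 1042 to 1540.1 in KO, median -0.91), with Abcc9 (-1.44, SE 0.23), Vtn (-1.16, SE 0.20) and Kcnj8 (-1.22, SE 0.25) first. None of these 25 genes passed with all 6 pools, and 12 endothelial and 8 mural genes were lower without WT replicate 1 (background 5.97%). DESeq2 called 14 of 15 endothelial and 8 of 10 mural genes lower with all 6 pools, and 2 of the 10 identity genes (background 4.5%).

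Mesothelial markers were sparse, at 40.4 to 66.5 CPM summed in WT and 24.8 to 39.4 in KO, with Wt1 at -0.98 (SE 0.34), Gpm6a at -0.60 (SE 0.25) and Lrrn4 at -0.82 (SE 0.39). Schwann cell markers summed to 80.0 to 92.8 CPM in WT and 83.4 to 106.5 in KO, most of it from Cnp, and Cdh19 (-1.18, SE 0.37), Gfra3 (-1.74, SE 0.60) and S100b (-1.13, SE 0.40) led by p-value. Cardiomyocyte markers summed to 335 to 578 CPM in WT and 257 to 458 in KO, with Actc1 at -0.60 (SE 0.19), Myl2 at -0.53 (SE 0.18) and Ryr2 at -0.74 (SE 0.29). The 6 adipocyte markers were near 0, at 0.373 to 1.73 CPM summed in WT and 0.621 to 2.06 in KO, and none was tested. Over all 6 pools 0 genes of these lists passed. Without WT replicate 1 there were 0 mesothelial, 1 Schwann and 1 cardiomyocyte gene lower (background 5.97%).

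Egfr did not follow the identity genes among the WT pools. The ratio of Egfr to Pdgfra CPM was 1.34 in WT replicate 1, 0.442 and 0.355 in WT replicates 2 and 3, and 0.448, 0.342 and 0.537 in KO replicates 1 to 3. WT replicate 1 held the most Egfr and the least Pdgfra of the WT pools, and the other WT pools had ratios within or near the KO range.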

How the data were processed

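RNA was measured in 6 libraries, 3 WT and 3 KO, each from 1 pool of hearts. Raw integer counts, 1 per Ensembl gene and library, were deposited without scaling. The submitters' processing notes list STAR, HTSeq, DESeq2 and GRCm38. Not given in the sources used here are their versions, the annotation release and whether counting used strand. Counters that name no gene (reads outside genes 5.90% to 8.62%, in several genes 1.49% to 1.72%, at several places 7.58% to 8.67%) entered neither library sizes nor tests. Libraries held 17780707 to 27485129 reads in genes. Replicates differed by more than counting noise (chi-square per degree of freedom 38.0 to 84.1) and were kept apart.

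Identifiers were matched to symbols (55141 of 55487). edgeR 4.0.16 in R 4.3.3 kept 15707 genes (filterByExpr, minimum count 10), scaled by TMM and compared KO with WT by the two-sided quasi-likelihood F test, Benjamini-Hochberg adjusted, threshold 0.05. The SE is the size of the log2 fold change over the square root of F. CPM uses the TMM library sizes, and log2 CPM a prior count of 2. DESeq2 1.42.0, limma-voom (limma 3.58.1), other scalings and filters, a replicate block and each library left out were alternatives. Tested on simulated data (KO against WT, 15707 genes), the edgeR fit called 45 of 100 genes changed 2-fold, 95 of 100 changed 4-fold and 10 unchanged genes. The simulation gave all pools of a group the same mean and drew genes independently. It held no pool shift like that of WT replicate 1, so these rates do not carry over to the identity genes. Figures used matplotlib 3.10.9.

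The members and lists were chosen with earlier results of these data known. All 10 identity genes, Egfr, Lyz2 and Itgam are named, with up to 3 genes per list of smallest p and mean CPM of at least 1, and the 8 most similar genes. Genes shown for other reasons are the proteoglycan neighbours, the PDGF ligands, Csf1r, Pecam1, Cnp and the 7 positive genes, chosen after their values were seen.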

Additional observations from a re-analysis of the deposited data

How the results depend on the processing

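All 10 identity genes kept a negative log2 fold change in all 14 alternative settings (140 values, 0 reversed), and 18 of these values passed the threshold, 10 of them without WT replicate 1. Their median ranged from -1.41 to -0.63 when 1 library was left out. The number of identity genes called was 0 with all 6 pools, 2 with DESeq2 and 6 without a filter, and ranged from 0 to 10 when 1 library was left out, the 10 without WT replicate 1. Related fibroblast genes called were 0, then 27 with DESeq2, 43 without a filter, and 0 to 64 on leaving out 1 library, the 64 without WT replicate 1. Calls over all genes were 2, with 785 by DESeq2, 1 by limma-voom, 782 without a filter, and 1 to 1338 on leaving out 1 library (1338 without WT replicate 1, and 1 when WT replicate 2 or 3 or KO replicate 1 or 2 was absent). Why the calls differ between tools was not tested. Among 50 other named genes, 0 of 692 values reversed, while 96 newly passed the threshold and 7 no longer did. Most of these genes were named for small p-values or for similarity to the identity genes. A reversal was therefore unlikely from the start. Deviations of same-numbered WT and KO pools from their group means had correlations near 0 (r of 0.10, -0.16 and 0.01). With 3 pools per group, this cannot settle whether same-numbered pools were handled together. With the replicate block, 0 identity genes and 3 genes overall were called, with a median of -0.90. Depth did not limit the identity genes, which had at least 285 reads in each library, and Kera and the adipocyte markers were too low to test.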
